A study of Mus musculus with 18 samples.

Results

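The PI3K, AKT and FOXO pathway genes described here are 9 genes chosen by name from the deposited table of 54347: the catalytic subunit genes Pik3cd and Pik3cg, the regulatory subunit gene Pik3r1, the phosphatase gene Inpp5d, the kinase genes Akt1 and Akt2, and the transcription factor genes Foxo1, Foxo3 and Foxo4. All 9 were present and all 9 passed the filter on low counts, among 12973 genes tested. The cells were leukemia stem cells of C57BL/6JRj mice, sorted out of bone marrow on a flow cytometer when leukemia had been induced for 30 days, with 7000 cells per mouse. The 5 Prx1-Cxcl12-mutant mice (numbers 6, 7, 8, 10 and 12) were compared with the 4 Prx1-Cxcl12-wild type mice (numbers 1, 2, 3 and 4), called controls below. Leukemia had been induced in every mouse, controls included. Each mouse gave 2 technical libraries of transcript 3' ends, which were summed, so that the mouse was the replicate. The sources used here do not give the exact Cxcl12 and Prx1 alleles, the leukemia driver, the sorting gate, or the age and sex of the mice. Prx1 regulatory sequence is used in mouse genetics to reach mesenchymal stromal cells, so the mutation names a cell of the niche and not the sorted cell.

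Phosphoinositide 3-kinase (PI3K) adds a phosphate to a membrane lipid when a cytokine receptor or a chemokine receptor, among them the CXCL12 receptor CXCR4, is engaged. The lipid recruits AKT kinases to the membrane, and AKT phosphorylates FOXO transcription factors, which then leave the nucleus. In blood stem cells the FOXO factors are known for restraining cell division and for sustaining defence against reactive oxygen. Much of this control acts on proteins by phosphorylation, and the libraries measured RNA only.

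AKT recognises the residues arginine, any residue, arginine, any pair of residues, then serine or threonine. A script searched the longest annotated coding sequence of each gene for codons that spell this pattern. Foxo1, Foxo3 and Foxo4 each held 3 matches, while 2.07% of 21476 genes with a coding sequence held at least 3 and 22.7% held at least 1. The stretches around the first and second matches are shown because they make plain what joins the 3 FOXO genes to AKT. The codons of the pattern are in capitals, and the residue named is the one that would receive the phosphate, counted from the first methionine.
Foxo1, threonine 24: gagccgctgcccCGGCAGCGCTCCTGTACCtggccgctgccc
Foxo3, threonine 32: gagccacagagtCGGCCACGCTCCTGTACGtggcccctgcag
Foxo4, threonine 32: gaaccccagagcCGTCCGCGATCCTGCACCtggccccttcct
Foxo1, serine 253: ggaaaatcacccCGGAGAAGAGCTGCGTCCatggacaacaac
Foxo3, serine 252: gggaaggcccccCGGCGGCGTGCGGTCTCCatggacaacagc
Foxo4, serine 197: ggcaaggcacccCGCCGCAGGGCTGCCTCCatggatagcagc

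Total counts per mouse were 15959029 to 25485899 in mutants and 11766467 to 16784991 in controls, so that mutant mice were on the whole sequenced more deeply. A level of 3 counts equalled 0.26 CPM (counts scaled to a common library total) in the shallowest mouse and 0.12 CPM in the deepest. Cxcl12 had between 0 and 4 counts per mouse, and its level in these cells is no check of a mutation aimed at stroma. All 13 genes of the blood and myeloid progenitor marker list were detected, with a summed level of 9410 to 17970 CPM in mutants and 9990 to 12110 CPM in controls. Most of this sum came from Mpo, Elane, Prtn3 and Ctsg. Within the list, Kit and Csf3r, described below, were lower in every mutant than in any control. The ranges of the other genes of the list overlapped between the groups. All 10 mature neutrophil markers were tested. Their sum was 228 to 472 CPM in mutants and 453 to 974 CPM in controls, and most of the gap came from the cathelicidin gene Camp, with 75.3 to 195 CPM in mutants and 281 to 550 CPM in controls. Without Camp the sum was 153 to 351 CPM in mutants and 168 to 423 CPM in controls, which overlap. The means of 5 of the 10 markers (Ltf, Lcn2, Mmp8, Retnlg and Cxcr2) were higher in mutants and those of the other 5 lower, and edgeR called 0 of them. Lymphocytes also use Pik3cd and Pik3cg, and 1 of 9 listed T and NK cell genes and 2 of 8 listed B and plasma cell genes passed the filter on low counts. Cd3g and Cd4 were at 0 in every mouse, and Ms4a1 reached at most 0.36 CPM in mutants and 0.12 CPM in controls. The summed T and NK cell level, mostly Nkg7, was 102 to 194 CPM in mutants and 89.7 to 144 CPM in controls. The summed B and plasma cell level, mostly Cd79b, was 49.6 to 68.2 CPM in mutants and 54.6 to 76.7 CPM in controls.

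None of the 9 genes differed between the groups beyond the threshold. Values below are CPM with TMM factors, given as mean ± SD over mice (n = 5 mutants and 4 controls) with the log2 fold change of mutant over control, its standard error (SE) and its 95% interval. In edgeR's quasi-likelihood test with Benjamini-Hochberg adjustment over all tested genes, 0 of 9 passed an adjusted p of 0.05, against 9 of 12973 genes (0.0694%, of which 0.0231% were higher and 0.0462% lower in mutants). DESeq2 and limma-voom also called 0 of the 9. At an unadjusted p under 0.05, 1 of 9 was found by edgeR, DESeq2 and limma-voom alike, and it was Pik3cd each time, with the lower level in mutants. The share over the 12973 genes tested by edgeR was 9.85% (4.96% higher and 4.89% lower in mutants), so 1 of 9 is near the background. The DESeq2 share was 5.79% of 24943 genes, since DESeq2 was run without the low-count filter. Of the 9 log2 fold changes, 5 were below 0 and 4 above, with a median of -0.07, against 0.01 over all tested genes. For 0 of the 9 genes were the groups apart from each other without overlap, which was the case for 4.0% of all tested genes (1.87% higher and 2.13% lower in mutants).

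**Figure D1:**
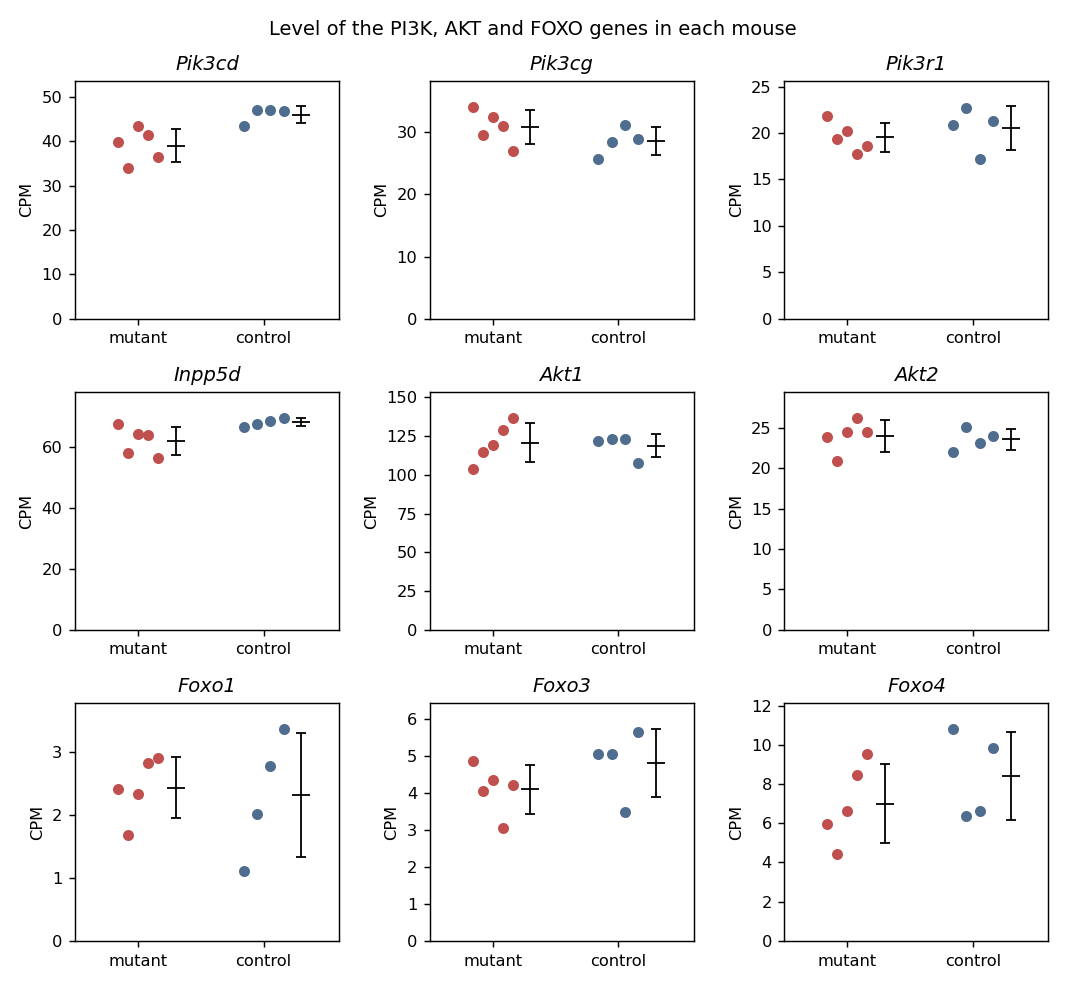
CPM of each of the 9 genes (vertical axis, from 0) in 5 mutant mice (left, red) and 4 control mice (right, blue), ordered by mouse number within a group. Points are mice, and the bar beside them is the mean ± SD. Pik3cd shows 4 of 5 mutants under the lowest control, and the groups overlap for each of the 9 genes.

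Pik3cd encodes p110 delta, the catalytic subunit that leukocytes use behind cytokine and antigen receptors. It had 39.9, 34.1, 43.4, 41.4 and 36.4 CPM in mutant mice 6, 7, 8, 10 and 12, against 43.4, 47.0, 47.0 and 46.9 CPM in control mice 1 to 4. The groups touched: 4 of 5 mutants were under the lowest control, and the highest mutant (43.39 CPM) was level with that control (43.36 CPM). The means were 39.0 ± 3.77 CPM in mutants and 46.1 ± 1.81 CPM in controls. The log2 fold change was -0.24 (SE 0.09, 95% interval -0.43 to -0.05), with an unadjusted p of 0.0191 that ranked 610 among 12973 genes and an edgeR adjusted p of 0.403. Over 21 other analyses it lay between -0.29 and -0.19, and the smallest adjusted p was 0.198. Among the markers given above, Kit, Csf3r, Camp, Adgre1 and Itga2b were lower in every mutant than in any control, and Car1 was higher. The sum of the neutrophil markers without Camp overlapped. The total count was on the whole higher in mutants, although mutant 12 (15959029) was below the highest control (16784991). The part of these markers and of the total count in the Pik3cd values was not tested. In sorted bulk cells, fewer cells of one type and less RNA per cell cannot be told apart.

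Pik3cg encodes p110 gamma, the catalytic subunit that G protein beta-gamma units activate behind chemokine receptors. It had 34.1, 29.5, 32.5, 31.0 and 27.0 CPM in mutant mice 6, 7, 8, 10 and 12, against 25.7, 28.4, 31.2 and 28.9 CPM in control mice 1 to 4. Mutants 6 and 8 were above every control, and the other 3 lay among them. The means were 30.8 ± 2.76 CPM in mutants and 28.6 ± 2.24 CPM in controls (log2 fold change 0.11, SE 0.10, interval -0.10 to 0.32, edgeR adjusted p = 0.731). The value was 0.036 without the first library of mutant 7, 0.062 without control 1, 0.071 without mutant 6 and 0.019 with the total count in the model.

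Because the log2 fold changes of these catalytic genes lay on either side of 0, their balance was taken within each mouse, where library scaling cancels. This measure was chosen after the values were seen, from 36 possible ratios of the 9 genes, and carries no test. Pik3cd made up 53.9%, 53.6%, 57.2%, 57.2% and 57.4% of the summed Pik3cd and Pik3cg counts in mutant mice 6, 7, 8, 10 and 12, against 62.7%, 62.4%, 60.1% and 61.9% in control mice 1 to 4. The mean was 55.9% ± 1.94 in mutants and 61.8% ± 1.17 in controls, a difference of -5.91 percentage points, and the groups did not overlap. The same held for 3 of the 36 ratios, the other 2 being Pik3cd over Akt2 and Pik3cg over Inpp5d. All 3 hold Pik3cd or Pik3cg, so they are not independent of each other. How often ratios of other tested genes keep the groups apart was not computed, so this count has no background beside it. Single libraries were less clear. In 4 of 9 mice the gap between the libraries exceeded the difference between the groups, and in 5 it was smaller. Mutant 7 had 48.3% in its first library and 62.7% in its second, a gap of 14.4 points, and the median gap over the 9 mice was 3.8 points. Taken from first libraries alone, the groups overlapped (48.3% to 61.5% in mutants, 58.8% to 64.6% in controls). Second libraries alone overlapped as well (52.7% to 62.7% in mutants, 60.8% to 65.4% in controls).

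**Figure D2:**
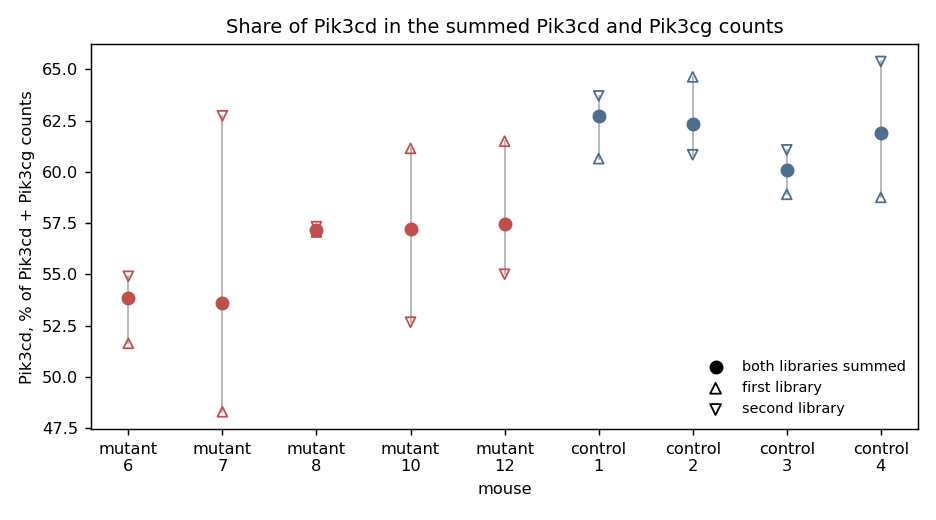
Share of Pik3cd in the summed Pik3cd and Pik3cg counts (vertical axis, percent, not starting at 0) for 5 mutant mice (left, red) and 4 control mice (right, blue). Filled points are the summed libraries of a mouse and open triangles its single libraries. Summed values are 53.6% to 57.4% in mutants and 60.1% to 62.7% in controls, and single libraries overlap.

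The shares of Akt1 and of the FOXO genes overlapped between the groups. Akt1 made up 83.4% ± 1.40 of the Akt1 and Akt2 counts in mutants and 83.4% ± 1.26 in controls, with the mutant range of 81.4% to 84.8% covering that of the controls, 81.8% to 84.6%. Foxo4 made up 50.9% ± 7.05 of the counts of the 3 FOXO genes in mutants and 53.7% ± 7.04 in controls. The share of Foxo1 was 16.6% to 19.7% in mutants and 6.51% to 21.7% in controls, so that the controls were the more widely spread.

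Pik3r1 encodes p85 alpha, the subunit that holds catalytic subunits such as p110 delta in check and docks them on phosphorylated tyrosines. Its level ran from 17.7 to 21.8 CPM in mutants and from 17.2 to 22.7 CPM in controls, so that the control range enclosed every mutant. The log2 fold change was -0.07 (SE 0.11, interval -0.30 to 0.16, edgeR adjusted p = 0.853), and it was 0.11 in first libraries alone.

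Inpp5d encodes SHIP1, the blood cell phosphatase that removes a phosphate from the lipid made by PI3K. It had 67.6, 58.2, 64.3, 64.0 and 56.5 CPM in mutant mice 6, 7, 8, 10 and 12, against 66.6, 67.8, 68.6 and 69.7 CPM in control mice 1 to 4. As for Pik3cd, 4 of 5 mutants were under every control, while mutant 6 lay among them. The means were 62.1 ± 4.63 CPM in mutants and 68.2 ± 1.33 CPM in controls (log2 fold change -0.13, SE 0.08, interval -0.31 to 0.04, edgeR adjusted p = 0.594). The value was -0.24 in first libraries alone and -0.047 in second libraries alone.

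Akt1 and Akt2 encode the kinases themselves, Akt1 being tied mostly to growth and survival and Akt2 to the insulin response. Akt1 had 104, 115, 119, 129 and 137 CPM in mutant mice 6, 7, 8, 10 and 12, against 122, 123, 123 and 108 CPM in control mice 1 to 4. Mutants thus lay on both sides of the controls. Akt1 gave a log2 fold change of 0.02 (SE 0.10, interval -0.19 to 0.23, edgeR adjusted p = 0.951). Akt2 ran from 20.9 to 26.3 CPM in mutants and from 22.1 to 25.1 CPM in controls (log2 fold change 0.02, SE 0.09, interval -0.18 to 0.23, adjusted p = 0.952). As folds, these intervals reached from 0.88 to 1.18 for Akt1 and from 0.88 to 1.17 for Akt2, so larger differences in RNA lay outside them. Both signs turned when single mice were left out.

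The FOXO genes had few counts, and their intervals were correspondingly wide. Foxo1, which encodes the factor best known for control of metabolism and of lymphocyte genes, had 42 to 56 counts per mouse in mutants and 14 to 57 in controls. Its levels were 2.42, 1.69, 2.34, 2.83 and 2.91 CPM in mutant mice 6, 7, 8, 10 and 12, against 1.11, 2.02, 2.79 and 3.38 CPM in control mice 1 to 4. Both the lowest and the highest Foxo1 value belonged to a control. The fitted log2 fold change was 0.05 (SE 0.30, edgeR adjusted p = 0.969), and the interval held folds from 0.66 to 1.62.

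Foxo3 encodes the factor most often tied to stem cell dormancy and antioxidant genes. It had 4.85, 4.05, 4.34, 3.04 and 4.21 CPM in mutant mice 6, 7, 8, 10 and 12, against 5.05, 5.05, 3.47 and 5.63 CPM in control mice 1 to 4. Controls 1, 2 and 4 were above every mutant, and control 3 lay under 4 of the 5. Its log2 fold change was -0.23 (SE 0.19, interval -0.64 to 0.18, adjusted p = 0.714 by edgeR), and it was 0.086 in first libraries alone.

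Foxo4 had 5.95, 4.41, 6.64, 8.48 and 9.55 CPM in mutant mice 6, 7, 8, 10 and 12, against 10.8, 6.35, 6.61 and 9.84 CPM in control mice 1 to 4. Values of both groups were spread over a similar range, with mutants 6 and 7 lowest. The log2 fold change was -0.27 (SE 0.24, interval -0.78 to 0.25, edgeR adjusted p = 0.737), and it was 0.21 with the total count as a covariate.

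**Figure D3:**
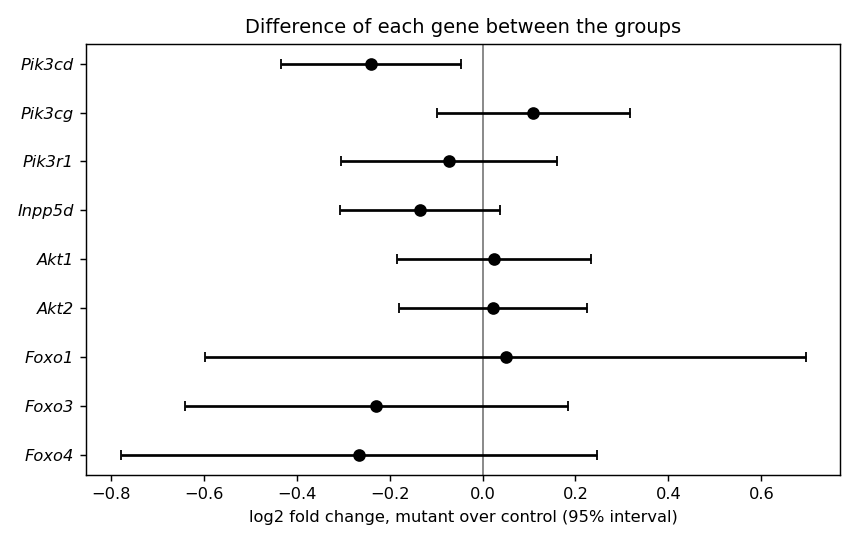
Log2 fold change of mutant over control (horizontal axis) for the 9 genes, with 95% intervals from the edgeR fit on 5 mutant and 4 control mice. The intervals of 8 genes cross 0, that of Pik3cd runs from -0.43 to -0.05 before adjustment over all genes, and those of Foxo1, Foxo3 and Foxo4 are widest.

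The genes also differed in how steady they were. The SD of log2 CPM among mice of a group was 0.08 for Inpp5d and 0.52 for Foxo1, the lowest and highest of the 9. The SD between libraries of the same mouse ran from 0.11 for Akt1 to 0.39 for Foxo3. For 3 of 9 genes the spread of summed values among mice was the larger of these measures. Of the 162 library values of the 9 genes, 28 were not whole numbers, among them 11 of Inpp5d, 8 of Pik3r1 and 6 of Foxo1.

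On GRCm38, Pik3cd (ENSMUSG00000039936) lies on chromosome 4, 149649168 to 149702571, and Pik3cg (ENSMUSG00000020573) on chromosome 12, 32173473 to 32208659. Pik3r1 (ENSMUSG00000041417) lies on chromosome 13, 101680563 to 101768217, and Inpp5d (ENSMUSG00000026288) on chromosome 1, 87620312 to 87720507. Akt1 (ENSMUSG00000001729) lies on chromosome 12, 112653821 to 112674884, and Akt2 (ENSMUSG00000004056) on chromosome 7, 27591552 to 27640826. Foxo1 (ENSMUSG00000044167) lies on chromosome 3, 52268336 to 52353221, Foxo3 (ENSMUSG00000048756) on chromosome 10, 42181841 to 42276755, and Foxo4 (ENSMUSG00000042903) on chromosome X, 101254528 to 101260873. Pik3cd and Akt1 each overlap a microRNA gene on their own strand, Pik3r1 overlaps the provisional gene Gm36638 on its own strand, and Foxo1 overlaps Gm38034 on its own strand and the antisense gene Gm20402. Of the 687 exon bases of Gm20402, 674 are also exon bases of Foxo1, and the table gives Gm20402 a count of 0 in every mouse. No strand setting of the counting is stated in these sources, so whether the Foxo1 counts hold antisense reads was not tested.

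The genes whose pattern over the 9 mice was most like that of Pik3cd, among 8522 named genes with a mean of at least 5 CPM, were Sbno2, Anapc11 and Gstp1. The root mean square difference in centred log2 CPM was 0.04, 0.05 and 0.05, against an SD of 0.16 for Pik3cd itself. Those most like Inpp5d were Poll, Map2k5 and Dennd1a, at 0.05, 0.05 and 0.06 against an SD of 0.10. None of these 6 passed the edgeR test, with adjusted p-values between 0.353 and 0.763. They were picked for following Pik3cd or Inpp5d over the same mice, so this adds no separate result.

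Beyond the 9 genes, 7 lists with 174 other genes of the pathway were examined, of which 154 were tested. By edgeR 0 of the 154 were called, limma-voom called 0 and DESeq2 called 1, against 0.0694% of all genes by edgeR and 0.612% by DESeq2. At an unadjusted p under 0.05, edgeR found 2 above and 12 below 0, together 9.09% of the 154 against 9.85% over all tested genes. DESeq2, run without the low-count filter, found 16 of the 169 list genes it tested at an unadjusted p under 0.05 (9.47%). Its share over all genes was 5.79% of 24943. That total takes in many genes with too few counts for the edgeR filter, so these DESeq2 shares do not cover like genes. The groups did not overlap for 5 of the 154 (3.25%, against 4.0% of all tested genes). The median log2 fold change was -0.05, against 0.01 over all tested genes, and 101 of 154 were below 0 (65.6%, against 48.3% of all tested genes).

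**Figure D4:**
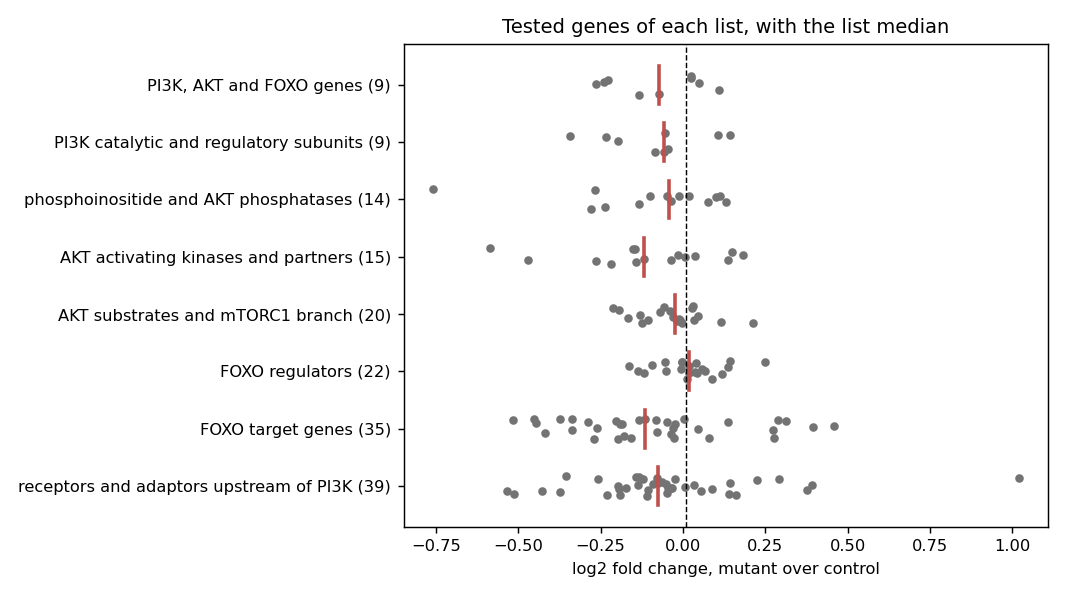
Log2 fold change of mutant over control (horizontal axis) for the tested genes of the 9-gene set and of the 7 pathway lists (rows, with the number of tested genes). Grey points are genes, the red bar is the list median, and the dashed line is the median over all tested genes, 0.01. Medians run from -0.12 to 0.02.

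Other PI3K subunits gave 2 of 9 tested genes above 0 and 7 below, with 0 called and a median of -0.06 that became -0.15 without control 3. Pik3r4, which encodes the partner of the endosomal kinase VPS34, had the smallest p, at 11.5 ± 0.96 CPM in mutants and 13.5 ± 0.69 CPM in controls (log2 fold change -0.23, SE 0.11, edgeR adjusted p = 0.504). The phosphatases of the lipid and of AKT gave 5 of 14 above 0 and 9 below (median -0.04, 0 called), and the median was -0.0055 without mutant 6 and -0.086 without control 1. Inpp4a, which acts on the lipid after SHIP1, had 7.45 ± 0.66 CPM in mutants and 9.01 ± 1.39 CPM in controls (log2 fold change -0.28, SE 0.14, edgeR adjusted p = 0.53).

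Kinases and partners that activate AKT gave 5 of 15 above 0 and 10 below (median -0.12, 0 called), and the median was -0.029 without mutant 8 and -0.056 with the total count in the model. Prr5, a subunit of the mTORC2 kinase complex, was at 2.31 ± 0.66 CPM in mutants and 3.44 ± 0.98 CPM in controls (log2 fold change -0.59, SE 0.26, edgeR adjusted p = 0.486). Substrates of AKT and the mTORC1 branch gave 6 of 20 above 0 and 14 below (median -0.02, 0 called). The translation repressor gene Eif4ebp1 was at 109 ± 7.06 CPM in mutants and 126 ± 12.6 CPM in controls (log2 fold change -0.21, SE 0.09, edgeR adjusted p = 0.472). Regulators of FOXO gave 13 of 22 above 0 and 9 below (median 0.02, 0 called). The methyltransferase gene Prmt1 was at 122 ± 4.91 CPM in mutants and 111 ± 5.17 CPM in controls (log2 fold change 0.14, SE 0.08, edgeR adjusted p = 0.574).

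Receptors and adaptors upstream of PI3K gave 12 of 39 above 0 and 27 below (median -0.07). None was called by edgeR. At an unadjusted p under 0.05, 4 of the 39 were below 0, against 4.89% of all tested genes. In 2 of the 39 the groups did not overlap, with the lower values in mutants, against 2.13% of all tested genes. Kit, the stem cell factor receptor gene, had 21.8, 16.1, 19.0, 17.2 and 21.1 CPM in mutant mice 6, 7, 8, 10 and 12, against 23.5, 27.4, 24.2 and 27.1 CPM in control mice 1 to 4. The groups did not overlap (log2 fold change -0.43, SE 0.11, edgeR adjusted p = 0.254). Csf3r, the receptor gene for granulocyte colony-stimulating factor, also had groups that did not overlap, although the highest mutant and the lowest control were both 67.4 CPM when rounded. It stood at 58.0 ± 12.3 CPM in mutants and 82.6 ± 13.6 CPM in controls (log2 fold change -0.51, SE 0.17, adjusted p = 0.345 by edgeR). Cxcr4 had 6.77, 13.5, 7.06, 8.53 and 7.77 CPM in mutant mice 6, 7, 8, 10 and 12, against 17.4, 11.8, 8.92 and 12.7 CPM in control mice 1 to 4. Mutant 7 was the only one above a control (log2 fold change -0.53, SE 0.23, edgeR adjusted p = 0.465). The value was -0.35 without control 1, -0.80 in first libraries alone and -0.27 in second libraries alone. Kit and Csf3r belong to the blood and myeloid progenitor marker list used here. Of the 10 mature neutrophil markers given above, 5 had higher and 5 lower means in mutants. Camp was on the same side as Csf3r. Ltf was on the other, with 9.24 to 19.98 CPM in mutants and 2.31 to 10.2 CPM in controls. The part of these markers was not tested.

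Genes that FOXO factors are known to switch on, or in the case of the D-type cyclins to switch off, gave 10 of 35 tested above 0 and 25 below, with a median of -0.12 that became -0.046 without control 4. The cyclin genes Ccnd1 (-0.20) and Ccnd2 (-0.34) were among the 25, so these counts pool targets of both kinds. By edgeR 0 were called, with 2 above and 5 below 0 at an unadjusted p under 0.05, where 4.96% of all tested genes were above and 4.89% below. Txnip, whose product binds thioredoxin and slows glucose uptake, had 86.8, 90.3, 87.6, 86.4 and 83.5 CPM in mutant mice 6, 7, 8, 10 and 12, against 110, 95.8, 121 and 112 CPM in control mice 1 to 4. The groups did not overlap, and the mutants lay close together. The log2 fold change was -0.34 (SE 0.08, edgeR adjusted p = 0.25), and DESeq2 called it at an adjusted p of 0.0385.

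Cdkn1b, which encodes the cell cycle inhibitor p27, had 3.33 ± 0.53 CPM in mutants and 4.76 ± 0.73 CPM in controls (log2 fold change -0.52, SE 0.18, edgeR adjusted p = 0.386). The insulin receptor substrate gene Irs2 had 8.40 ± 1.04 CPM in mutants and 11.4 ± 2.11 CPM in controls (log2 fold change -0.45, SE 0.15, edgeR adjusted p = 0.369). With Txnip these made 3 of 35 tested targets whose groups did not overlap, and all 3 had lower values in mutants, against 2.13% of all tested genes in that direction. The targets lay on both sides of 0. The mitophagy kinase gene Pink1 had 27.3 ± 1.83 CPM in mutants and 22.6 ± 2.41 CPM in controls (log2 fold change 0.27), and Klf2 had 16.7 ± 4.29 CPM in mutants and 12.2 ± 3.32 CPM in controls (0.46), with edgeR adjusted p-values of 0.398 and 0.504.

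The element GTAAACA, to which FOXO factors bind, was searched on both strands in the RefSeq promoters of GRCm38.p6, from 250 bases before to 50 bases after each start site. It was in the promoter of 6 of the 35 targets with an entry (17.1%), against 4.05% of 27025 genes. The list holds genes already known as FOXO targets, so this higher share is no result of these data. Of the 9 genes, 8 had an entry, and Akt1 and Pik3cg held the element. The elements in targets with the smallest p-values and in both of these genes are shown on the strand of the gene, with the element in capitals (TGTTTAC where it lies on the other strand).
Txnip, chr3:96557815-96557863, plus strand: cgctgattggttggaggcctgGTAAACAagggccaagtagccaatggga
Bcl2l11, chr2:128125790-128125838, plus strand: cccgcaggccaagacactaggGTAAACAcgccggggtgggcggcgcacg
Btg1, chr10:96616776-96616824, plus strand: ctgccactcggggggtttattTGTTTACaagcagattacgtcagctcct
Pik3cg, chr12:32208535-32208583, minus strand: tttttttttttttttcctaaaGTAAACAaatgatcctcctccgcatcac
Akt1, chr12:112675018-112675066, minus strand: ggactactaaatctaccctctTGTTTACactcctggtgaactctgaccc

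The element starts 121 bases before the RefSeq start site of Txnip and 92 bases before that of Pik3cg. For Pik3cg the start site differs between annotations. Its stretch, 32208535 to 32208583, lies within the GENCODE span of the gene given above, 32173473 to 32208659. Of the 6 targets with it, 5 were tested, and their log2 fold changes were -0.34 for Txnip, -0.37 for the cell death gene Bcl2l11, -0.27 for the growth inhibitor gene Btg1, -0.18 for the cell death gene Bbc3 and -0.13 for the sestrin gene Sesn1. All 5 were below 0, as were 71.4% of all tested targets, and 0 of them passed by edgeR. Among the 6 other tested genes of the set and the lists that hold the element, 1 was below 0, and Akt1 (0.02) and Pik3cg (0.11) were above. Over all 283 tested genes with the element, 50.9% were below 0. Trim63, the other holder, did not pass the filter on low counts. A match says only that these letters occur in the window.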

How the data were processed

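The authors deposited 1 table of estimated counts per gene for 18 libraries, which are not whole in 11.3% of values. Per the submitters' processing notes, bcl2fastq, FastQC, Salmon 1.3 and GRCm38 were used. The sources used here do not give the annotation release, any use of molecular identifiers or the strand setting. The first 18 characters of each ID were matched to a gene name table (54094 of 54347 had a symbol). Counts of both libraries of each mouse were added, then rounded to whole numbers. The main test was the quasi-likelihood F-test of edgeR 4.0.16 under R 4.3.3, with TMM factors, no covariate, a filterByExpr count minimum of 10 and Benjamini-Hochberg adjustment over 12973 genes. Intervals are 95% from that fit. Alternatives were DESeq2 1.42.0, limma-voom 3.58.1, RLE and upper-quartile factors, other filters, single technical libraries, a random mouse effect, a total-count covariate and leaving out each mouse. The scripts were tested on simulated counts. Counting floors cover counting error only.

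The 9 genes and the lists were chosen with earlier results of these data known. Named genes were the 9, the called genes of each list and up to 3 with the smallest unadjusted p under 0.05 (otherwise the smallest p), and the 3 most alike in pattern (mean of at least 5 CPM) to each of the 2 genes with the smallest p. Bcl2l11, Btg1, Bbc3, Sesn1 and Trim63 are named for their promoters. Ccnd1, Ccnd2, Pink1, Klf2, Flt3, Camp, Ltf and the genes of single markers were named after their values were seen. Promoters are from RefSeq (GRCm38.p6), and coding sequences and positions from GENCODE M21. No protein table was used.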

Additional observations from a re-analysis of the deposited data

Results flagged for a closer look

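Of 48 sets of values examined (20 genes and 4 paralogue shares in each group), 4 held a mouse that stood far from the others of its group, where chance gives about 1 in 20. Pik3cd was at 43.4 CPM in control 1, against 46.9 to 47.0 CPM in the other controls. Akt1 was at 108 CPM in control 4, against 122 to 123 CPM in the other controls. In mutant 7, Csf3r was at 36.7 CPM, against 59.4 to 67.4 CPM in the other mutants, and Cxcr4 was at 13.5 CPM, against 6.78 to 8.53 CPM.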

How the results depend on the processing

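The count of called genes among the 9 stayed at 0 in all 22 alternatives. Over all genes, 9 were called by edgeR, against 86 by DESeq2, 61 with a random mouse effect, 21 with no low-count filter and 3 in second libraries only. It was 0 in first libraries only, with the total count as a covariate, when genes had to average 10 CPM or more and, chosen after seeing the data, without the first library of mutant mouse 7. Leaving out each mouse gave 0 to 7 (7 without mutant 6, 4 without control 2, 2 without control 1, and 0 without any other). In the pathway lists 1 gene, Txnip, was called by DESeq2 (adjusted p = 0.0385) and with the random mouse effect (0.018). Signs turned for Pik3r1 (0.11), Akt1 (-0.036) and Foxo3 (0.086) in first libraries only, for Foxo1 in second libraries only (-0.011) and, chosen after seeing the data, after thinning to equal totals (-0.17), and for Foxo4 with the total count as a covariate (0.21). Leaving out a mouse gave log2 fold changes of -0.025 to 0.073 for Akt1, -0.011 to 0.071 for Akt2 and -0.17 to 0.29 for Foxo1. The cause was not tested. Over 21 alternatives the log2 fold change was -0.29 to -0.19 for Pik3cd, 0.019 to 0.16 for Pik3cg and -0.24 to -0.047 for Inpp5d. Of the named list genes, Cxcr4 (-0.80 to -0.27) and Irs2 (-0.72 to -0.26) covered the widest ranges. Next came Cdkn1b (-0.78 to -0.38), Prr5 (-0.74 to -0.40) and Inpp4a (-0.47 to -0.15). The others were Kit (-0.58 to -0.32), Csf3r (-0.60 to -0.38) and Pik3r4 (-0.36 to -0.145). Eif4ebp1 (-0.30 to -0.12), Prmt1 (0.061 to 0.19) and Txnip (-0.40 to -0.28) complete them. List medians ran from -0.15 to -0.019 for PI3K subunits, -0.086 to -0.0055 for phosphatases, -0.12 to -0.029 for AKT activators, -0.061 to -0.0046 for AKT substrates, -0.091 to -0.0495 for receptors and -0.045 to 0.11 for FOXO regulators. The Pik3cd share differed by -6.46 to -4.81 points over 11 alternatives. The few counts of Foxo1, Foxo3 and Foxo4 limit what could be seen. So does the main test itself, which called 22.7% of the genes changed 1.5-fold in simulated counts. A gene that was not called can therefore still differ. No paired analysis was possible because the groups share no mouse numbers.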

Other observations

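Flt3, a receptor gene upstream of PI3K picked out after its values were seen, was uneven among mutants. It had 9.69 CPM in mutant 6 and 0.41 to 2.55 CPM in the other 4 mutants, against 0.24 to 2.55 CPM in controls (log2 fold change 1.02, SE 0.75, edgeR adjusted p = 0.68).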
